A study of Caenorhabditis elegans with 6 samples.

Results

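The regions described here are the surroundings of the nuclear tRNA genes of C. elegans, taken as a window of 500 bp on each side of the start of each tRNA gene in the WBcel235 annotation (Ensembl release 115). All annotated nuclear tRNA genes were included. A window was called bound when it held the centre of at least 1 peak of HIF-1 ChIP–seq. In egl-9 mutants 57 windows were bound and 555 were not, and in the control strain 10 were bound and 602 were not. Of all 46890 nuclear genes of any type, 1.35% had a peak centre within 500 bp of their start in egl-9 mutants, and 0.109% did so in controls. Bound windows follow directly from the peak lists, so their number is a description. Sequence, gene neighbourhood and chromosome were not part of the rule that calls a window bound. Peak signal entered through the authors' peak calling, and in alternatives limited to peaks of higher signal. The GA repeat searched below was chosen because it was known to be frequent in these peaks.

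Chromatin of staged L4 larvae, kept at 20 °C in normal air, was immunoprecipitated through the GFP tag of a HIF-1::GFP fusion and sequenced. Both strains carried unc-119(ed3), the hif-1(ia4) deletion and the integrated transgene odIs131, a fosmid from which hif-1::gfp and the unc-119 rescue were expressed. The control strain, OR3349, was wild type for egl-9, whose product hydroxylates HIF-1 when oxygen is present and so targets it for destruction, and OR3350 also carried egl-9(sa307), in which HIF-1 accumulates at normal oxygen. Each genotype had 2 ChIP replicates and 1 pooled input, 6 libraries in all. The replicates of a genotype had been reduced to 1 list of reproducible peaks, with 604 nuclear peaks for OR3350 and 52 for OR3349, so that no value below has a spread between replicates. All HIF-1 came from 1 transgenic line in whole larvae, which mix all tissues, and read numbers are stated in the methods only as a range over all libraries, not per library. Intervals are 95% Wilson intervals for shares and exact 95% intervals for odds ratios, and both cover the sampling of regions or peaks only.

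tRNA genes are transcribed by RNA polymerase III from promoter elements inside the gene, the A box and the B box, to which the assembly factor TFIIIC binds. HIF-1 acts with RNA polymerase II: together with its partner AHA-1 it binds hypoxia response elements (HREs), whose core is ACGTG or GCGTG, near protein-coding genes for oxygen, sulfur and energy metabolism. tRNA genes of C. elegans lie scattered over all chromosomes, many of them on X, and are present as families of identical or nearly identical copies.

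The gene sequences below come from the RefSeq WBcel235 genome, run 5′ to 3′ on the strand of the gene and show tRNA genes beside which peaks were centred. Of these bound genes 4 match the exact B box letters searched and 1 does not. Capitals mark the B box, searched on the gene strand of the tRNA gene as GGTTCGA, then any 2 bases, then CC. C18A11.t2 (arginine, X:8036685-8036757, minus strand) lies at the edge of the highest tRNA peak of egl-9 mutants and within a weaker second call. C04A11.t1 (leucine, X:13665555-13665673, plus strand) and C53C7.t1 (serine, X:13046578-13046659, plus strand) were bound in both strains, and ZK678.t1 (leucine, X:15742050-15742133, plus strand) was bound in the control list alone. F02H6.t1 (proline, IV:14225102-14225173, plus strand) belongs to a family in which the exact letters do not occur.
C18A11.t2: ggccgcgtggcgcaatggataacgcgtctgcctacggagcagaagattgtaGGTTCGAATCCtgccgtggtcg
C04A11.t1: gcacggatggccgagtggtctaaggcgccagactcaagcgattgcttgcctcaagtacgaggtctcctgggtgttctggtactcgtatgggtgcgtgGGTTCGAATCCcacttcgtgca
C53C7.t1: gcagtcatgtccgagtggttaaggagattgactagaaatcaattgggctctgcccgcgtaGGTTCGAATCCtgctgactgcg
ZK678.t1: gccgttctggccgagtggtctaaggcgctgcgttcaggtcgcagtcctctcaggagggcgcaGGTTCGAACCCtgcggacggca
F02H6.t1: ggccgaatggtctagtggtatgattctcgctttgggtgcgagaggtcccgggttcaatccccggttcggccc

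The B box letters were present in 394 tRNA genes (64.4%), against 1 of 19973 protein-coding genes (0.00501%) in the first 72 bases, the median length of a tRNA gene. tRNA genes were 64 to 122 bp long. Windows of neighbouring genes overlap and then share their peaks, so the windows were merged into 480 loci, of which 382 held 1 tRNA gene and 98 held 2 or more (230 genes, at most 6 in a locus). Chromosome X carried 276 tRNA genes (45.1%), and 290 tRNA genes lay within the span of a protein-coding gene. Only 200 different gene sequences occurred, and 469 genes had at least 1 identical copy elsewhere in the genome.

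In egl-9 mutants the 57 bound windows made up 9.31% (7.26 to 11.9%) of all tRNA windows. The share was 1.44% (1.29 to 1.62%) for 19973 protein-coding genes, 11.6% (8.61 to 15.4%) for 346 snoRNA genes and 6.98% (3.71 to 12.7%) for 129 snRNA genes. The interval of the tRNA genes thus overlapped those of the other small RNA classes and lay above that of the protein-coding genes. These intervals treat windows as independent, although neighbouring windows can share a peak, and the classes were not tested against each other. The 57 windows formed 46 bound loci, reached by 47 peaks, which were 7.78% (5.90 to 10.2%) of all peaks of the list. In the control strain 10 windows were bound, 1.63% (0.890 to 2.98%), against 0.0601% of protein-coding genes, 1.73% of snoRNA genes and 2.33% of snRNA genes. These 10 windows formed 8 loci with 8 peaks, 15.4% (8.01 to 27.5%) of the short control list. In both lists 9 windows were bound, and the window of 1 gene, ZK678.t1, was bound only in the control list. Because the lists differ in length and each was thresholded on its own, an absent peak in 1 list does not show that the locus was unbound there.

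**Figure D1:**
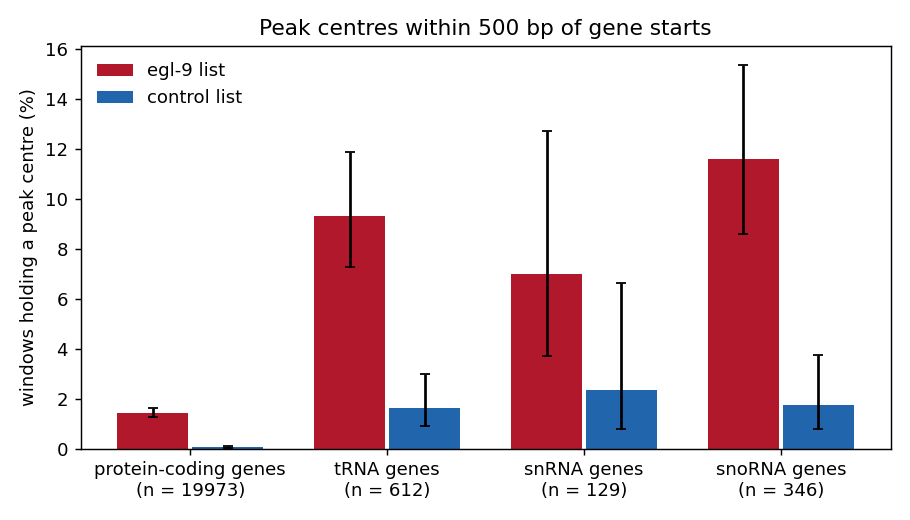
Share of windows (%, vertical axis) of 500 bp on each side of the gene start that held a peak centre, for protein-coding, tRNA, snRNA and snoRNA genes, with red bars for egl-9 mutants, blue bars for the control strain and 95% Wilson intervals as error bars. In egl-9 mutants the tRNA bar stands at 9.31%, between snRNA genes at 6.98% and snoRNA genes at 11.6%, and the protein-coding bar stands at 1.44%.

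The peaks sat on or close to the tRNA genes themselves. In egl-9 mutants the median distance between peak centre and nearest tRNA start was 36 bp (2 to 286 bp), and 31 of 47 centres lay within 50 bp and 43 within 100 bp. Only 2 centres lay between 100 and 200 bp, 2 lay between 200 and 300 bp, and none lay between 300 and 900 bp, so almost the whole outer part of the window was empty. The peaks overlapped a tRNA gene in 46 of 47 cases, all but that at R04A9.t1, and 17 centres fell inside one. Upstream of the start lay 24 centres and downstream 23. All 47 centres were nearer to a tRNA start than to a protein-coding transcription start site (TSS), with a median TSS distance of 1431 bp, and 0 had a snoRNA or snRNA gene start within 500 bp. The control list gave similar positions for its 8 peaks, with a median distance of 41 bp (3 to 194 bp), 7 of 8 centres within 100 bp, 4 on each side, and all 8 overlapping a tRNA gene.

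The members at the edge of the rule were few. The farthest centres inside the window in egl-9 mutants were at 286 bp from C18A11.t2 (signal 212), 222 bp from R04A9.t1 (73.0), 116 bp from C27A2.t1 (58.0), 109 bp from C04A2.t1 (60.0) and 89 bp from T23F1.t2 (76.2). The nearest outside were at 923 bp from F56F10.t1 (127) and 938 bp from ZK994.t2 (130). The first of these has cdo-1, for cysteine dioxygenase, as its nearest protein-coding gene, and the second has pxn-1, for a peroxidasin. Next came centres at 1040 bp from ZK783.t1 (59.3), 1259 bp from C16D9.t3 (58.0) and 1291 bp from W02H3.t1 (59.3). In the control list the peaks just outside were at 935 bp from ZK994.t2 (234), 976 bp from F56F10.t1 (149), 1459 bp from W03C9.t1 (157), 1512 bp from W02H3.t1 (199) and 1960 bp from ZK899.t1 (143).

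**Figure D2:**
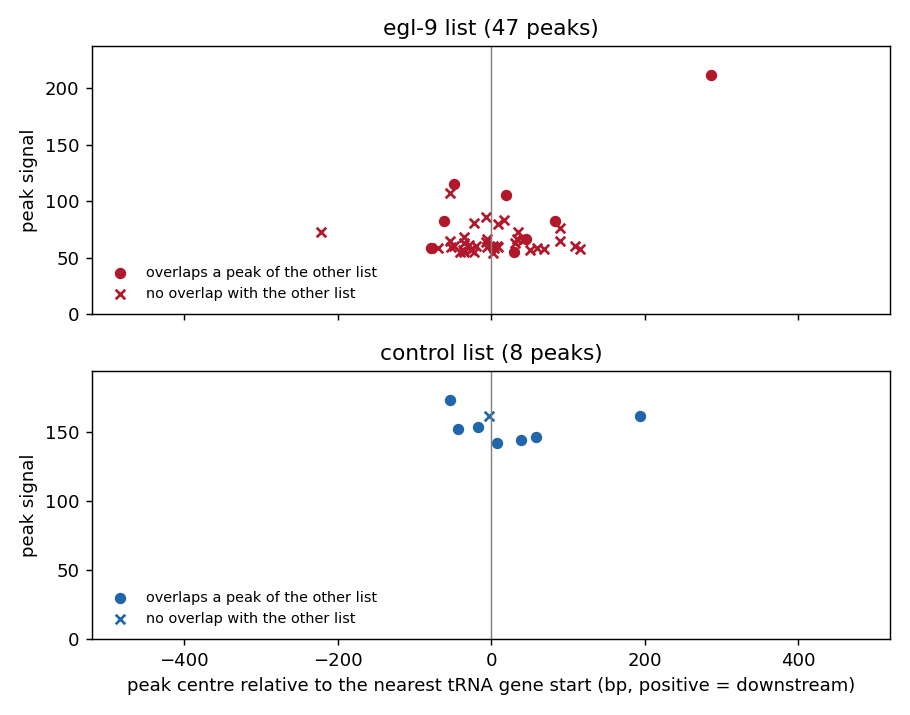
Peak signal (vertical axis, scale of each list) against the distance in bp from the nearest tRNA start to the peak centre (horizontal axis, positive downstream), for the 47 tRNA peaks of egl-9 mutants in red and the 8 of the control strain in blue, with filled circles for peaks that overlap a peak of the other list and crosses for the others. Of the egl-9 peaks 43 lie within 100 bp of the start, the highest stands apart at 286 bp and signal 212, and no centre lies beyond that distance within the window.

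Most tRNA peaks were weak for their list. Signal, the value the lists give for each peak, is in a unit that is not known exactly and is not scaled between genotypes, so it was used only for order within a list. In egl-9 mutants the tRNA peaks had signals from 54.4 to 212 with a median of 61.1, against 54.5 to 838 with a median of 78.8 for the 557 other peaks. The stronger peaks of the list (signal above its median of 76.7) included 10 of 47 tRNA peaks (21.3%) and 292 of 557 other peaks (52.4%), an odds ratio of 0.246 (0.107 to 0.516; two-sided Fisher exact test, p = 5.17e-05, adjusted p = 0.000466 over the 9 main tests of this list). The median rank was 464 of 604 for tRNA peaks and 289 for the others. Only 1 tRNA peak was among the 100 strongest, and 37 lay beyond rank 300. Among peaks on chromosome X alone the shares were 9 of 27 (33.3%) and 64 of 114 (56.1%), which missed the threshold (exact test, adjusted p = 0.142), an alternative added after the data were seen.

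The strongest egl-9 tRNA peak, rank 31, lay 286 bp downstream of C18A11.t2, an arginine tRNA gene. Its centre lay 4842 bp from the nearest TSS, that of xol-1, the switch gene of sex determination and dosage compensation. A second, overlapping call at the same gene had rank 256 (signal 82.4, 83 bp downstream), and the pair was counted as 2 peaks. Rank 130 lay 48 bp upstream of M02F4.t1, a glycine tRNA gene beside the glutamate tRNA gene M02F4.t2. Rank 145 (signal 107) lay 54 bp upstream of F15G9.t2, an alanine tRNA gene within him-4, the hemicentin gene. Rank 149 (signal 106) was centred 19 bp into C04A11.t1. These were the only tRNA peaks with a signal above 100.

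The next peaks were closer together in signal. F46G11.t2 (proline) had rank 231 and signal 85.7, C33G3.t2 (lysine) rank 250 and signal 83.2, and C53C7.t2 (serine) rank 254 and signal 82.8. F02H6.t1 (proline) had rank 270 and signal 80.7, and its nearest protein-coding gene, at 2626 bp from the centre, was sqrd-1, for the sulfide:quinone oxidoreductase of hydrogen sulfide metabolism. F41D9.t3 (asparagine), within sulp-3, a gene of the sulfate permease family, had rank 276. All 5 centres lay 62 bp or less from the tRNA start, and 2 of the 5, at C33G3.t2 and F02H6.t1, had an HRE core within 100 bp of the centre.

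The control tRNA peaks were also in the lower part of their list, though that list is short. Their signals ran from 142 to 173 with a median of 153, against 141 to 671 with a median of 174 for the 44 other peaks. Among the stronger peaks (signal above the median of 170) were 1 of 8 tRNA peaks (12.5%) and 25 of 44 others (56.8%), a difference that did not pass after adjustment (two-sided Fisher exact test, p = 0.0496, adjusted p = 0.187 over the 8 main tests of this list). The highest was at M02F4.t2 (rank 24, signal 173), the 1 tRNA peak above the median. C18A11.t2 (rank 32) and ZK678.t1 (rank 33) both had a signal of 162. ZK678.t1 lies 560 bp from the TSS of nhr-255, a gene of the nuclear hormone receptor family. C53C7.t2 (154), F47G6.t1 (152), B0350.t1 (146), C04A11.t1 (144) and K09C8.t1 (142) followed. F47G6.t1, an arginine tRNA gene on chromosome I, lies within spe-15, a myosin gene needed in spermatogenesis, and K09C8.t1, a glycine tRNA gene, has nas-10, an astacin protease gene, as its neighbour, with its TSS 332 bp from the peak centre.

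An egl-9 peak overlapped 7 of the 8 control tRNA peaks and 41 of the 44 other control peaks, so such overlap was common to the whole control list. Their egl-9 counterparts spread over the list, at rank 31 for C18A11.t2, 130 for the M02F4 pair, 149 for C04A11.t1, 254 for C53C7.t2, 390 for B0350.t1, 524 for F47G6.t1 and 585 for K09C8.t1. Counted from the egl-9 list, 8 of 47 tRNA peaks (17.0%) and 53 of 557 other peaks (9.52%) overlapped a control peak, an odds ratio of 1.95 (0.747 to 4.52) that did not pass (two-sided Fisher exact test, p = 0.125, adjusted p = 0.225). Among the stronger peaks the shares were 5 of 10 and 45 of 292 (15.4%; exact test, adjusted p = 0.0433), and among the weaker peaks, added after the data were seen, 3 of 37 and 8 of 265. The 5 and the 8 both include the 2 overlapping calls at C18A11.t2, which overlap the same control peak. The exact test among the stronger peaks thus counts 1 site 2 times, and it was not repeated with that site counted once.

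The sequences around the starts are those of bound tRNA genes with 2 HRE cores each, since a core is the element by which HIF-1 is known to recognise DNA. They do not stand for all bound windows of egl-9 mutants, of which 25 of 57 had a core within 100 bp of the start. Each run covers 100 bp on each side of the start, and capitals mark ACGTG or GCGTG on either strand (CACGT and CACGC where the core is on the opposite strand). C14F11.t1 (arginine, X:6220042-6220242, minus strand) has 1 core before the gene and 1 inside it, where its gene sequence is identical to that of C18A11.t2. C33G3.t2 (lysine, X:14063918-14064118, minus strand) likewise has 1 core outside and 1 inside the gene. F52H2.t2 (asparagine, X:2549500-2549700, minus strand) has 2 cores, both before the gene.
C14F11.t1: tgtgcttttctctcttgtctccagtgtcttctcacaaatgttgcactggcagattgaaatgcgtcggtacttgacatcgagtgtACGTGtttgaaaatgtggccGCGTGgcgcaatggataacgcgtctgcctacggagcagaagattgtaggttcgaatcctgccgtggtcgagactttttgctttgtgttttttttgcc
C33G3.t2: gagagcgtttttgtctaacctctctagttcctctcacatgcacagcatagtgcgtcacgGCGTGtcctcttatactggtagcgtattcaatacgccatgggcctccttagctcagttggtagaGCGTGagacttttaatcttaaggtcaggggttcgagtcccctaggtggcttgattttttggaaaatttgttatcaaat
F52H2.t2: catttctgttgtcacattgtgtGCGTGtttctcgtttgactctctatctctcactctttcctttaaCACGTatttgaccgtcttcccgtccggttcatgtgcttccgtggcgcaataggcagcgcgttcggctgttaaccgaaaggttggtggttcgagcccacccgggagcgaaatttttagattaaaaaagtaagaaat

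No difference in HRE cores was detected between bound and unbound tRNA genes. A core within 100 bp of the start occurred in 47.7% of all tRNA windows and in 30.1% of protein-coding starts, and the gene body itself held one in 197 tRNA genes, as in the arginine family of C14F11.t1. Among loci of 1 tRNA gene, 19 of 32 bound in egl-9 mutants (59.4%) and 183 of 350 unbound (52.3%) had a core, an odds ratio of 1.33 (0.603 to 3.03; two-sided Fisher exact test, p = 0.466, adjusted p = 0.524). The sign of this difference was not stable: over all windows the shares were 43.9% of bound and 48.1% of unbound, and for ACGTG alone they were 3 of 32 (9.38%) and 58 of 350 (16.6%). In the control list 2 of 5 bound and 200 of 377 unbound loci had a core (exact test, p = 0.670). A core within the tRNA gene was found in 18 of 57 bound genes (31.6%) and in 179 of 555 unbound genes (32.3%). Identical gene copies share such cores, and the exact tests count these copies as separate loci.

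In the main test, on both forms of the core together, the difference between tRNA peaks and the rest of their list missed the adjusted threshold. For ACGTG alone, an alternative, tRNA peaks held the core less often. Within 100 bp of the peak centre, 24 of 47 egl-9 tRNA peaks (51.1%) and 385 of 557 other peaks (69.1%) had a core, an odds ratio of 0.467 (0.245 to 0.892; two-sided Fisher exact test, p = 0.0144, adjusted p = 0.0649). Among the alternatives, for ACGTG alone the shares were 6 of 47 (12.8%) and 261 of 557 (46.9%; exact test, p = 2.38e-06, adjusted p = 2.14e-05). For either form within 50 bp of the centre they were 13 of 47 (27.7%) and 270 of 557 (48.5%; adjusted p = 0.0274 by the exact test). These exact tests count peaks at identical gene copies, and both overlapping calls at C18A11.t2, as separate peaks. The 12.8% of tRNA peaks with ACGTG stand beside 16.6% of unbound single tRNA loci with it near the start. Of the 24 peaks with a core, 11 had one outside tRNA genes and 13 had cores only inside them, and 8 had more than 1 core.

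The comparison was also made among the weaker peaks alone, which was added after the data were seen. There 20 of 37 tRNA peaks (54.1%) and 162 of 265 others (61.1%) had a core of either form (exact test, p = 0.474), and that difference was smaller than in the whole list. For ACGTG alone the weaker peaks gave 6 of 37 (16.2%) and 105 of 265 (39.6%; exact test, p = 0.00585, adjusted p = 0.0263). In the control list 1 of 8 tRNA peaks (12.5%), that at C04A11.t1, and 31 of 44 others (70.5%) had a core (two-sided Fisher exact test, p = 0.00346, adjusted p = 0.0277). That call rests on 8 peaks and was lost, with adjusted p from 0.120 to 0.187 by the exact test, with ACGTG alone, with 50 bp on each side, and among the weaker peaks.

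**Figure D3:**
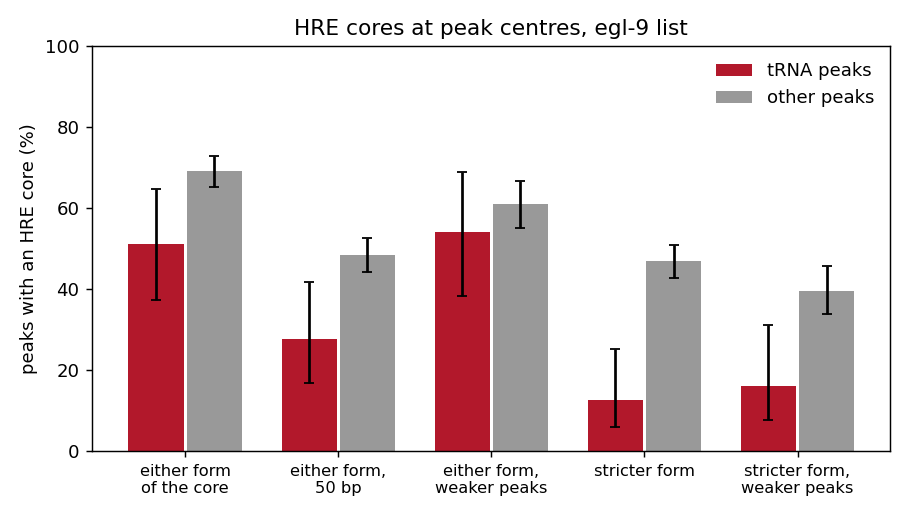
Share of egl-9 peaks (%, vertical axis) with an HRE core within 100 bp of the peak centre (50 bp where stated), for tRNA peaks in red and other peaks in grey, in the whole list and among its weaker peaks (below the median signal), with 95% Wilson intervals. Either form is ACGTG or GCGTG and the stricter form is ACGTG, for which the bars stand at 12.8% and 46.9% in the whole list and at 16.2% and 39.6% among the weaker peaks.

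GA repeats, sought as GAGAGA, were already known from earlier results of these data to be frequent at the peaks. Bound loci are those with a peak, so their higher share of GA repeats near the start is a description. The difference passed the threshold only in alternatives to the main test. The runs below are those of bound tRNA genes with many matches, cover 100 bp on each side of the start and carry GAGAGA on either strand in capitals (TCTCTC where it is on the opposite strand). C04A11.t1 (leucine, X:13665455-13665655, plus strand) holds 5 overlapping or separate matches before the gene. K09A11.t1 (tyrosine, X:13264666-13264866, minus strand) holds 7 in 1 unbroken repeat, and F33G12.t1 (isoleucine, II:5032671-5032871, plus strand) holds 5.
C04A11.t1: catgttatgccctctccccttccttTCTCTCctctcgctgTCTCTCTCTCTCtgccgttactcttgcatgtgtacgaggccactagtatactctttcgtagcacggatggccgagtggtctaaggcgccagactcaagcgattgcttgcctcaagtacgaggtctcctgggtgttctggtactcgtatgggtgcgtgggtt
K09A11.t1: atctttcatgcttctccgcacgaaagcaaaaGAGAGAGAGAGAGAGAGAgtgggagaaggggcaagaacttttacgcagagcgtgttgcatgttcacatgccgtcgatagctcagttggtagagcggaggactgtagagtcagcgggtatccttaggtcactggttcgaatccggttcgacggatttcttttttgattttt
F33G12.t1: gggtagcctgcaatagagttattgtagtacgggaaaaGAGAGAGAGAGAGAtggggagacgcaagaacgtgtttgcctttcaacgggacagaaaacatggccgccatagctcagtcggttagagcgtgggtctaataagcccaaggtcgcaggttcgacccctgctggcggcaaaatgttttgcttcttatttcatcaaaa

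In the main comparison GAGAGA was sought in the whole window, where 49.8% of all tRNA windows and 44.8% of protein-coding starts had it. Among loci of 1 tRNA gene it occurred in 22 of 32 bound (68.8%) and 176 of 350 unbound loci (50.3%), an odds ratio of 2.17 (0.953 to 5.29) that did not pass (two-sided Fisher exact test, p = 0.0633, adjusted p = 0.142). Closer to the start, within 100 bp, it occurred in 17 of 32 bound (53.1%) and 74 of 350 unbound loci (21.1%; exact test, p = 0.000274, adjusted p = 0.00123). At that width 20.9% of all tRNA windows and 14.0% of protein-coding starts had it. With loci of several tRNA genes included, the counts were 22 of 46 (47.8%) and 98 of 434 (22.6%; exact test, adjusted p = 0.00218). Both narrow comparisons were added after the data were seen, when GA repeats were already known to be frequent in these peaks. Their adjusted p values do not count the other settings tried. Bound loci hold such peaks by definition, and 43 of 47 peak centres lay within 100 bp of a tRNA start. The GAGAGA tests therefore give no independent support for a feature of tRNA loci.

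The repeat was found at similar shares of tRNA and other peaks, a comparison given without a test. Within 100 bp of the peak centre GAGAGA occurred in 20 of 47 egl-9 tRNA peaks (42.6%) and in 227 of 557 other peaks (40.8%). On chromosome X 14 of 18 bound and 56 of 127 unbound single loci (44.1%) had it in the whole window (exact test, adjusted p = 0.0433). On the autosomes 8 of 14 bound and 120 of 223 unbound loci (53.8%) had it, a difference of 3.33 percentage points. This split by chromosome was added after the data were seen. Whether X and autosomes differ was not tested. In the control list 3 of 5 bound and 195 of 377 unbound loci had the repeat (exact test, p = 1).

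**Figure D4:**
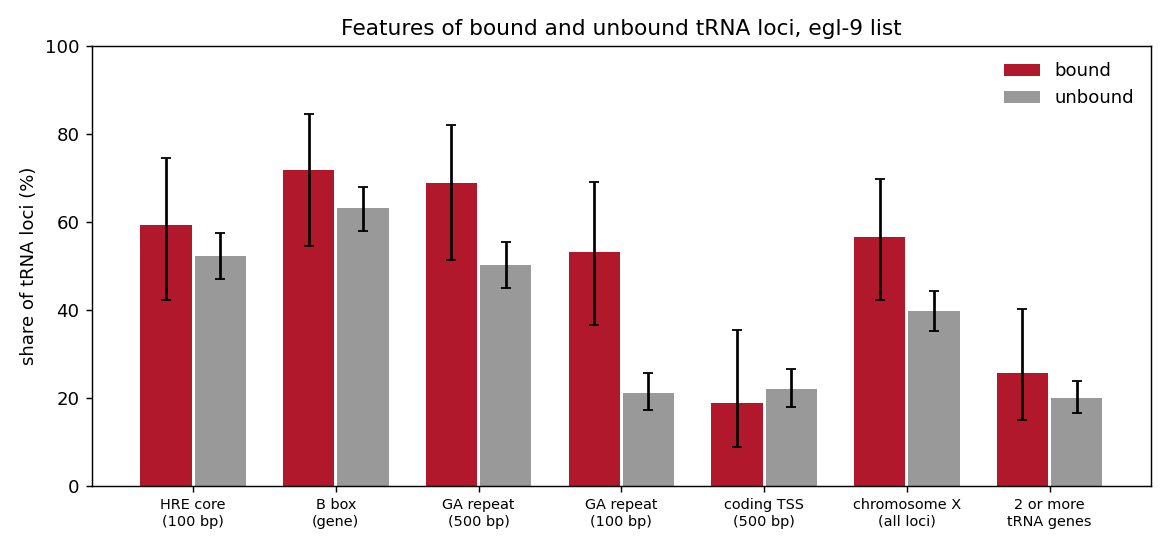
Share of tRNA loci (%, vertical axis) with each feature, for loci bound in egl-9 mutants in red and unbound loci in grey, with 95% Wilson intervals; the distance in brackets is the width searched on each side of the start, and GA repeat stands for GAGAGA. The widest gap is for the GA repeat within 100 bp, 53.1% of bound and 21.1% of unbound loci. That width was added after the data were seen, for a motif already known to be frequent in these peaks. The main comparison of the GA repeat, within 500 bp, did not pass the adjusted threshold. Chromosome X holds 56.5% of bound and 39.6% of unbound loci, a difference that did not pass either.

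The B box marks the binding site of TFIIIC. Its exact letters as searched here occurred in 23 of 32 bound (71.9%) and 221 of 350 unbound single loci (63.1%), an odds ratio of 1.49 (0.640 to 3.78; two-sided Fisher exact test, p = 0.442, adjusted p = 0.524). A gene without these letters was not shown to lack a B box. Identical gene copies share the letters, and the exact test counts such copies as separate loci. All 5 single loci bound in the control strain had the letters, against 239 of 377 unbound (exact test, p = 0.164). Over all windows the letters were present in 37 of 57 bound genes (64.9%) and 357 of 555 unbound genes (64.3%). The base composition around the starts was close as well, with a median GC content within 100 bp of the start of 47.8% in bound and 45.3% in unbound windows.

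A larger share of bound than of unbound tRNA loci lay on X, but the difference did not pass after adjustment. Of 46 loci bound in egl-9 mutants 26 were on X (56.5%), against 172 of 434 unbound loci (39.6%), an odds ratio of 1.98 (1.03 to 3.86; two-sided Fisher exact test, p = 0.0396, adjusted p = 0.119). In windows, 33 of 276 on X were bound (12.0%, 8.64 to 16.3%) and 24 of 336 on the autosomes (7.14%), with 6 of 66 on chromosome I, 4 of 57 on II, 6 of 64 on III, 4 of 71 on IV and 4 of 78 on V. No autosome exceeded the 9.38% of chromosome III. When only peaks above the median signal were used, 8 of 9 bound loci were on X, against 190 of 471 loci without such a peak (40.3%; exact test, adjusted p = 0.0200). Those 471 include the loci bound by weaker peaks alone. X held 27 of the 47 tRNA peaks, which include both overlapping calls at C18A11.t2, and 141 of all 604 peaks. X also carried 45.1% of tRNA genes, so the share among all peaks is not a like comparison. In the control strain 6 of 8 bound and 192 of 472 unbound loci were on X (40.7%; exact test, p = 0.0701, adjusted p = 0.187).

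No difference in nearby protein-coding starts was detected between bound and unbound tRNA genes. A protein-coding TSS lay within 500 bp of the tRNA start in 6 of 32 bound (18.8%) and 77 of 350 unbound single loci (22%), an odds ratio of 0.819 (0.266 to 2.13; two-sided Fisher exact test, p = 0.824). Within 1000 bp the order turned, with 15 of 32 (46.9%) and 135 of 350 (38.6%; exact test, p = 0.450). The median distance from tRNA start to TSS was 1734 bp for bound and 1434 bp for unbound windows, and 22 of 57 bound (38.6%) and 268 of 555 unbound genes (48.3%) lay within the span of a protein-coding gene. Of the 47 egl-9 tRNA peaks 8 had a TSS within 500 bp. In the control list 1 of 5 bound and 82 of 377 unbound loci had such a TSS (exact test, p = 1).

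Clusters of tRNA genes were compared by the first window of each locus, so that a peak counted once. A locus of 2 or more tRNA genes made up 11 of 43 bound (25.6%) and 87 of 437 unbound loci (19.9%), an odds ratio of 1.38 (0.603 to 2.95; two-sided Fisher exact test, p = 0.427, adjusted p = 0.524). With peaks above the median signal alone, 5 of 9 bound (55.6%) and 93 of 471 other loci (19.7%), which include those bound by weaker peaks, were clusters. That difference also missed the adjusted threshold (exact test, p = 0.0203, adjusted p = 0.0608). By size, 32 of 382 loci with 1 gene were bound (8.38%), 12 of 77 with 2 genes (15.6%), 1 of 14 with 3, 0 of 3 with 4, 0 of 2 with 5, and 1 of 2 with 6. Larger loci span more sequence and so have more room for a peak centre. Of the 47 peaks 11 had 2 or more tRNA starts within 500 bp, as at M02F4.t1 and M02F4.t2. In the control list 3 of 8 bound and 95 of 472 unbound loci were clusters (exact test, p = 0.211).

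Bound tRNA genes were spread over 16 isotypes, the amino acids the tRNAs carry, which RefSeq gives for all but 5 genes. Proline had 8 of 42 genes bound in egl-9 mutants (19.0%, in 5 loci), glycine 7 of 55, isoleucine 6 of 29 (20.7%, 9.85 to 38.4%), alanine 5 of 34 and lysine 5 of 46. Leucine and serine each had 4 of 39, arginine 3 of 44, glutamate 3 of 41 and methionine 3 of 20. Asparagine, aspartate and tyrosine had 2 each, and cysteine, glutamine and threonine 1 each. None was bound among 31 genes for valine, 20 for histidine, 14 for phenylalanine and 12 for tryptophan. The upper bounds of these shares ran from 11.03% to 24.2%, so none was shown to lie below the 9.31% of all tRNA genes. The single selenocysteine gene was unbound as well. No isotype was tested, since its genes are copies of few sequences.

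Identical copies of 1 gene were only in part called bound. Of 29 identical glycine tRNA genes 6 were bound in egl-9 mutants (4 of 19 loci), of 24 proline genes 6 (4 of 19 loci), of 25 lysine genes 3, of 19 isoleucine genes 4 and of 11 serine genes 3. The proline family, to which F02H6.t1 and F46G11.t2 belong, lacks the exact B box letters in every copy. The arginine family of C18A11.t2 has 10 copies, all on X, of which C18A11.t2 and C14F11.t1 were bound, at ranks 31 and 433. In their gene sequences these copies do not differ, so that any sequence difference between them lies in the flanks, of which the run around C14F11.t1 shows 1 example. An identical copy existed for 50 of 57 bound genes (87.7%) and 419 of 555 unbound genes (75.5%). Reads within such genes can align to several places, and the part of this in the peaks was not tested.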

How the data were processed

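Anti-GFP ChIP–seq of 2 genotypes was used as 1 peak list per genotype. The authors aligned reads with BWA to WBcel235, called peaks with an SPP pipeline and kept peaks reproducible between replicates. The deposited signal column was made by the authors, is not scaled between lists, and its exact quantity is not known, so it was used for rank alone. The column of summit offsets, deposited by the authors, served in 1 alternative. Peak starts were read as 0-based, and 19 and 18 mitochondrial peaks were left out. The study's methods state read numbers only as a range over all libraries, so depth per library is not known.

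tRNA windows, loci (overlapping windows merged) and distances were computed from the Ensembl annotation, and sequences came from RefSeq, whose coordinates matched for every tRNA gene. Sequence features and TSS distance were compared over loci of 1 tRNA gene. Shares were compared by two-sided Fisher exact tests with Benjamini-Hochberg adjustment within each list at 0.05 (SciPy 1.17.1, NumPy 2.4.6, Python 3.11.15, matplotlib 3.10.9). For an alternative, its p took the place of that of its main test among the main tests of the list. Its adjusted p therefore does not count the other alternatives tried. The procedures were tested on simulated data. Members, motifs and tests were chosen with earlier results of these data known. Named tRNA genes were those nearest to the 10 highest egl-9 tRNA peaks and to all control tRNA peaks, with the 5 peaks on each side of the 500 bp limit, and the nearest protein-coding genes. C14F11.t1, F52H2.t2, K09A11.t1, F33G12.t1 and C53C7.t1 were chosen after their values were seen.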

Additional observations from a re-analysis of the deposited data

How the results depend on the processing

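The 17 tested differences were recomputed under 97 alternatives, of which 74 kept the direction and the side of the threshold, 10 moved past it, 5 fell short of it and 8 changed sign. The 2 counts of bound windows were recomputed 10 times, 8 of them within 1.5 times the main count. Each alternative changed 1 choice, except 4 that changed 2 at once (GAGAGA within 100 bp over all loci and ACGTG among the weaker peaks, in each list). In all, 15 alternatives were added after the data were seen, so a single setting past the threshold is weaker evidence than a main test. No paired analysis was possible because each genotype has 1 list in which its replicates were already combined, and for the same reason no replicate could be left out. Values are differences in percentage points.

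For egl-9 mutants, HRE cores near the start (7.09, bound minus unbound) turned to -4.25 over all windows, -7.20 with ACGTG alone and -1.05 with a core anywhere in the window. Chromosome X (16.9) reached 48.5 with the stronger peaks alone (above the median signal). With that setting the cluster difference (5.67) was 35.8 but still missed the threshold. The TSS difference (-3.25) became 8.30 within 1000 bp. GAGAGA (18.5) passed the threshold over all windows (20.5, which share peaks) and, as added settings, within 100 bp (31.98), within 100 bp over all loci (25.2) and on X (33.7). That motif was chosen because it was known to be frequent in these peaks. Signal rank (-31.1) fell short on X alone (-22.8). HRE cores at tRNA peaks (-18.1) passed with windows of 1000 bp (-18.2), within 50 bp (-20.8), with ACGTG alone (-34.1) and with ACGTG among the weaker peaks (-23.4). Overlap with control peaks (7.51) passed among the stronger peaks (34.6), where the 2 calls at C18A11.t2 count 1 site 2 times.

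For the control list, the TSS difference (-1.75) became 41.3 within 1000 bp, and GAGAGA (8.28) became -0.783 with windows of 250 bp, -2.97 over all loci and -4.04 on autosomes. HRE cores at tRNA peaks (-58.0) fell short with ACGTG alone (-43.2), within 50 bp (-50), among the weaker peaks (-54.1) and with ACGTG among the weaker peaks (-42.1). With the stronger peaks of each list alone, bound windows fell from 57 to 13 in egl-9 mutants and from 10 to 2 in the control list, which leaves fewer peaks by construction. With that setting, HRE cores, TSS, B box and GAGAGA near control-bound starts were not run, since no bound locus of 1 tRNA gene was left. Causes of the other changes were not tested. In the control strain 8 loci were bound, and exact tests on 5 to 8 loci detect only large differences.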
